A study of Mus musculus with 18 samples.

Results

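The genes of MHC class I antigen presentation were followed through B cell differentiation in mouse. The 10 genes were B2m, H2-K1, H2-D1, Tap1, Tap2, Tapbp, Nlrc5, Psmb8, Psmb9 and Psmb10, taken by symbol from the 21761 genes of the expression table, and all 10 were found and passed the filter on low values. RNA-seq libraries were made from naive B cells (nB, B220+ GL7- Fas-) of lymph nodes of unimmunized mice, from germinal center B cells (GCB, B220+ GL7+ Fas+ and binding phycoerythrin, PE), and from CD138+ bone marrow plasma cells (BMPC), GCB and BMPC both taken 30 days after immunization with PE in complete Freund's adjuvant. Each cell type was sorted from Dnmt3-deficient mice, which carried Dnmt3afl/fl, Dnmt3bfl/fl and a Cre allele active in B cells, and from Dnmt3-sufficient littermates with the same floxed alleles and no Cre, with 3 libraries in each of the 6 groups and 18 in all. The floxed alleles were carried by both genotypes. Both de novo DNA methyltransferases thus lost their catalytic exons only in the B lineage, from the pre-B stage on. Mice were 8 to 12 weeks old, of both sexes, on a mixed B6 and 129S4 background, and each GCB sample pooled cells of a pair of mice.

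MHC class I molecules show fragments of a cell's own proteins to CD8 T cells. A heavy chain, encoded in the mouse by H2-K1 or H2-D1, folds with the invariant light chain beta-2 microglobulin, encoded by B2m. Peptides are cut by the proteasome, whose catalytic subunits Psmb5, Psmb6 and Psmb7 can be replaced by the immunoproteasome subunits Psmb8, Psmb9 and Psmb10, and are pumped into the endoplasmic reticulum by the transporter Tap1-Tap2, where Tapbp (tapasin) holds the transporter next to empty class I molecules. Nlrc5 is the transactivator that binds class I promoters, and interferon signaling also raises these genes.

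On the mm9 build that the values were counted on, 7 of the 10 genes lay on chromosome 17 within a span of 1351601 bases, the MHC. In the order of their starts these were Tapbp (chr17:34052844-34066235), H2-K1 (chr17:34132962-34137278), Psmb9 (chr17:34318932-34324697), Tap1 (chr17:34324498-34334170), Psmb8 (chr17:34334666-34338399), Tap2 (chr17:34340472-34353266) and H2-D1 (chr17:35399675-35404444). B2m lay at chr2:121973422-121978819, Nlrc5 at chr8:96996663-97051172 and Psmb10 at chr8:108459628-108462292. Psmb9 and Tap1 are read in opposite directions, and their annotations in GENCODE vM1 overlapped by 200 bases at their starts. Per the study's methods a read was counted where it overlapped the exons of 1 gene alone, so reads over both genes would be left out unless strand was used, which was not stated.

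The sequences before the starts of some of these genes are shown, chosen with their changes in these cells known. They are from RefSeq on GRCm38.p6, a later build than that of the counts, and are read in the direction of the gene, or of Tap1 for the region shared with Psmb9. The heavy chain genes and B2m have the 250 bases before the start, and Tap1 and Psmb9 have the 225 bases that separate their RefSeq starts. In GENCODE vM1, given above, both annotations start further out and overlap. H2-K1 has 2 entries, of which the first is shown. Capitals mark matches on either strand to GGGGATTCC (a kappa B motif), GAANNGAAA (an interferon response type motif), TGACG (an X2 or CRE type motif) and CCAAT (a Y box).
H2-K1, chr17:34000348-34000597, minus strand: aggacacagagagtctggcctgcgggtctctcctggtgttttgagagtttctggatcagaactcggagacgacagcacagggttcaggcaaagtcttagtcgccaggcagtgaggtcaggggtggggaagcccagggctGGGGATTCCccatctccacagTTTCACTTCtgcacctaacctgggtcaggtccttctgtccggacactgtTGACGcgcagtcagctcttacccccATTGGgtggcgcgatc
H2-D1, chr17:35262844-35263093, plus strand: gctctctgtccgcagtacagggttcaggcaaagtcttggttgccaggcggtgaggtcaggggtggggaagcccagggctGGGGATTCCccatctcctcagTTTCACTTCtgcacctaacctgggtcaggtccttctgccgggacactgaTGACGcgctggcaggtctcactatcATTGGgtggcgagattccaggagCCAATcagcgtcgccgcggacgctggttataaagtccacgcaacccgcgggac
B2m, chr2:122147437-122147686, plus strand: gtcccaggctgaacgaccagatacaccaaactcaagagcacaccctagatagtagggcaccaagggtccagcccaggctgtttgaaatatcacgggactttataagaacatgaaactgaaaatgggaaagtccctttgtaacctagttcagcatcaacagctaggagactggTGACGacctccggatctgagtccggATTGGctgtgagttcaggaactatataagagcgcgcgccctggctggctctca
Tap1 and Psmb9, chr17:34187331-34187555, plus strand: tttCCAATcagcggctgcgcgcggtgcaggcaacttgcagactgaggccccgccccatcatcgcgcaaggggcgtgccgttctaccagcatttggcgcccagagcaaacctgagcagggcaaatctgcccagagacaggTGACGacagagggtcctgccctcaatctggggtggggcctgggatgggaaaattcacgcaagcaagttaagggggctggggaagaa
The kappa B and interferon type matches lay in the same order in H2-K1 and H2-D1, 111 and 90 bases before the start of H2-K1 and 171 and 150 before that of H2-D1. The aligned parts of these windows were identical at 170 of 190 positions. Over the 250 bases before each of 32851 RefSeq starts, 0.213% held GGGGATTCC, 6.31% GAANNGAAA, 17.8% TGACG and 33.8% CCAAT, and 4 windows held all 4, namely those of H2-D1, H2-Q7 and both entries of H2-K1. B2m and the shared Tap1 and Psmb9 region held TGACG and CCAAT and had no match to the other 2 strings as written. Other forms of these motifs were not searched, and the strings used are forms that both heavy chain windows hold. The count of windows with all 4 is thus a description and no test. Of the members whose sequence is not printed, Tapbp held 2 CCAAT matches alone, and Psmb8 and Psmb10 held none of the 4 strings. A link between these strings and the changes of the genes was not tested. A match is a string of letters and was not measured as a binding site.

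Depth and purity set how firmly each level is known. Reads on genes ranged from 6692516 to 8987922 over nB libraries and 7644544 to 8903872 over GCB libraries, but from 1355231 to 3803197 over BMPC libraries. The sum of 6 plasma cell marker genes was 18743 to 50988 FPKM in BMPC against 312 to 511 in nB, and that of 6 germinal center markers was 726 to 949 FPKM in GCB against 25.7 to 73.6 in nB, so the labels and the markers went together. Markers of other cells were also read. In BMPC libraries 5 erythroid markers summed to 159.6 to 2229 FPKM, 5 early B cell markers to 308 to 627 FPKM, 8 neutrophil markers to 9.37 to 595 FPKM, 8 macrophage markers to 63.5 to 227 FPKM (C1qa, C1qc and Vcam1 were at 0 in every BMPC library), and 7 T cell markers to 74.3 to 218 FPKM. The erythroid and early B cell sums reached at most 218 and 22.5 FPKM in nB, and at most 11.6 and 1.65 FPKM in GCB, and the neutrophil markers were at 0 in both. The macrophage sum was 1.70 to 73.9 FPKM in nB, which overlapped BMPC, against 10.95 to 21.2 in GCB. The T cell sum overlapped all cell types, at 60.2 to 154 FPKM in nB against 77.4 to 134 in GCB, and 4 dendritic cell markers summed to 6.64 to 43.0 FPKM in BMPC (Zbtb46 was at 0 in every BMPC library), no more than the 23.6 to 116 FPKM of nB. Their part in the BMPC values below was not tested. Whole-gene FPKM of Dnmt3a and Dnmt3b counts exons outside the deleted part and checks no genotype label. Dnmt3a was at 2.35 to 5.18 FPKM in nB of Dnmt3-sufficient mice and 2.24 to 4.33 FPKM in nB of Dnmt3-deficient mice.

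Levels are in FPKM, reads per kilobase of exon, scaled by the reads that each library had on all listed genes. Changes are differences of log2(FPKM + 1), fitted with limma over all 18 libraries with 1 weight per cell type, and understate the change of genes at low FPKM. A gene was called where its p, adjusted by Benjamini-Hochberg over the 11522 genes tested, was 0.05 or less and its change at least 1 on the log2 scale. Changes between cell types are the mean of both genotypes, with 6 libraries a cell type. Fewer cells of a kind and less RNA per cell cannot be told apart in such bulk samples.

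In nB the heavy chains led, with means of 1693 FPKM ± 181 (SD, n = 6) for H2-D1 and 1170.3 ± 179 for H2-K1. B2m followed at 800.1 ± 112, then Psmb8 at 500.6 ± 53.9 and Psmb9 at 255 ± 26.2. Tapbp was at 193 ± 29.2, Psmb10 at 145 ± 20.2, Tap2 at 90.0 ± 31.9, Tap1 at 66.2 ± 8.48, and Nlrc5 was lowest at 15.8 ± 5.58. In GCB the highest means were those of Psmb8 at 647 ± 39.5 FPKM and H2-D1 at 637 ± 114, which overlapped library by library. In BMPC B2m stood far above the rest at 2819.7 ± 864 FPKM, H2-D1 was next at 682 ± 294, and Tap1 at 5.87 ± 5.40 and Nlrc5 at 2.83 ± 2.35 were lowest.

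**Figure D1:**
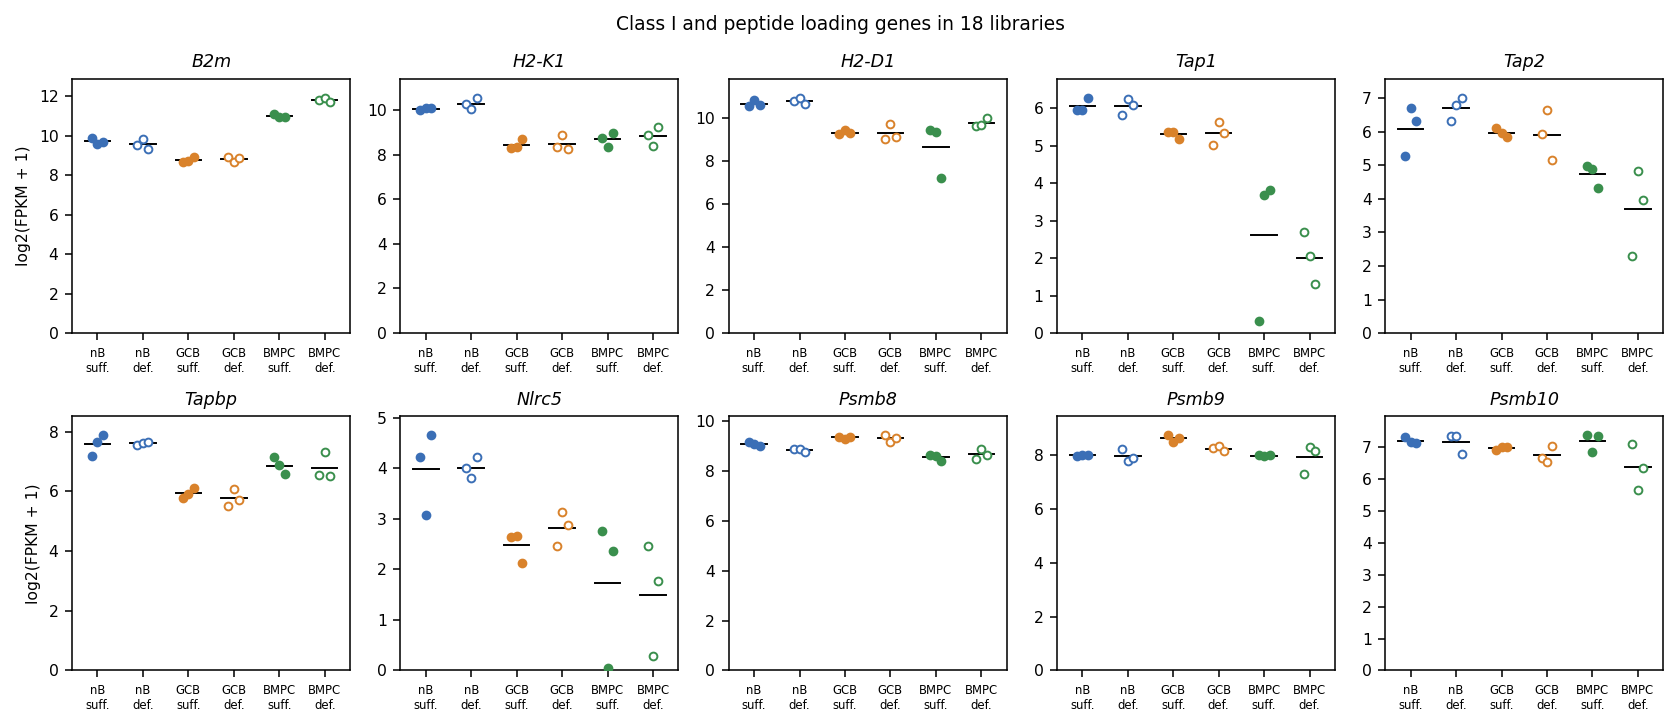
Each of the 18 libraries as a point, as log2(FPKM + 1) on an axis from 0, by cell type and by genotype (filled, Dnmt3-sufficient; open, Dnmt3-deficient), with the group mean as a line over 3 libraries. B2m is highest in BMPC, H2-K1, H2-D1 and Nlrc5 have their highest group means in nB, and Tap1 is at most 13.1 FPKM in the 6 BMPC libraries.

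The first question was how this machinery differed between naive and germinal center B cells. The heavy chain genes H2-K1 and H2-D1, the loading factor Tapbp and the transactivator Nlrc5 fell in GCB, while no immunoproteasome subunit was called. Of the 10 members 4 were called, all lower, against 28.8% of all genes tested called in either direction, 16.6% lower and 12.2% higher. The median change of the members was -0.80 against -0.13 for all genes tested. By the adjusted p alone, without a minimum change, 9 members passed, 2 higher and 7 lower, against 48.2% of all genes. GCB and nB libraries did not overlap for 6 members, against 27.6% of all genes.

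H2-K1 was at 1025, 1093 and 1103 FPKM in Dnmt3-sufficient nB, 1223, 1067 and 1511 in nB of Dnmt3-deficient mice, 319.9, 326 and 412 in Dnmt3-sufficient GCB and 326, 479 and 304 in Dnmt3-deficient GCB. Every GCB library was below every nB library, and the change was -1.70 ± 0.12 (SE), 3.25-fold lower, with an adjusted p of 1.15e-09 in limma. H2-D1 was at 1499, 1836 and 1536 FPKM in Dnmt3-sufficient nB, 1733, 1957 and 1599 in nB of Dnmt3-deficient mice, 605, 681 and 622 in Dnmt3-sufficient GCB and 523, 841 and 551 in Dnmt3-deficient GCB. These groups did not overlap either, and H2-D1 fell by 1.42 on the log2 scale (SE 0.14, adjusted p 1.28e-07, limma). B2m was at 943, 757, 807, 731, 913.7 and 649 FPKM in nB, the Dnmt3-sufficient libraries first, and at 398, 414, 478, 479, 400.3 and 463 in GCB. The light chain was thus also lower in every GCB library, but by 1.81-fold (log2 change -0.86 ± 0.08, adjusted p 4.91e-08, limma), less than the minimum change for a call.

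Tapbp was at 144, 199, 235, 186, 194 and 199.97 FPKM in nB, Dnmt3-sufficient first, and at 53.7, 58.9, 68.3, 44.6, 66.2 and 51.8 in GCB. This was the largest change among the members in GCB minus nB, -1.74 ± 0.13, 3.33-fold lower with no overlap (adjusted p 4.13e-09, limma). The transporter moved less. Tap1 was at 61.0, 61.4, 76.8, 55.7, 75.5 and 66.6 FPKM in nB and 40.5, 40.3, 35.4, 31.4, 48.9 and 39.5 in GCB, lower in every library but by 1.67-fold (adjusted p 0.0106, limma), and was not called. Tap2 spread widely, from 37.8 to 129 FPKM in nB and from 34.7 to 99.3 in GCB, and the groups overlapped (adjusted p 0.157, limma). Nlrc5 was at 17.5, 7.40, 24.2, 14.9, 13.0 and 17.6 FPKM in nB and 5.23, 5.31, 3.34, 4.49, 7.75 and 6.37 in GCB. The lowest nB library and the highest GCB library overlapped, and Nlrc5 fell by 1.35 on the log2 scale (SE 0.28, adjusted p 0.000629, limma).

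The immunoproteasome subunits changed little in GCB, with Psmb8 and Psmb9 higher and Psmb10 lower. Psmb8, the chymotrypsin-like subunit, was at 429 to 576 FPKM in nB and 580.5 to 695 in GCB, 1.30-fold higher without overlap (log2 change 0.37 ± 0.07, adjusted p 0.000147, limma). Psmb9 was at 223 to 300.1 FPKM in nB and 287 to 429.6 in GCB, 1.36-fold higher (adjusted p 0.00051, limma) with overlap. Psmb10 was at 109.6 to 161 FPKM in nB and 91.6 to 128 in GCB, 1.25-fold lower (adjusted p 0.0466, limma). None of the 3 reached the minimum change.

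Bone marrow plasma cells were then set against naive B cells. B2m rose in BMPC while both heavy chains, both subunits of the transporter and Nlrc5 fell. The calls were 1 higher and 5 lower of 10 members, against 42.3% of all genes called, 8.76% higher and 33.5% lower. The median change of the members was -1.08 against -0.79 for all genes. By the adjusted p alone 8 passed, 1 higher and 7 lower, against 45.1% of all genes, and 6 members did not overlap between nB and BMPC, against 24.8%. Because the median of all genes lay well below 0, and moved to -0.68 under median of ratios scaling, changes are also given relative to it.

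B2m was at 2216, 1960.4 and 1977 FPKM in Dnmt3-sufficient BMPC and at 3576, 3865 and 3323 in Dnmt3-deficient BMPC, above all 12 other libraries. It rose 3.41-fold over nB (log2 change 1.77 ± 0.16, adjusted p 7.74e-08, limma), which is 2.56 above the median of all genes. H2-K1 was at 428, 329 and 511 FPKM in Dnmt3-sufficient and 479, 331 and 613 in Dnmt3-deficient BMPC, 2.65-fold below nB without overlap (adjusted p 0.000118, limma). H2-D1 was at 681, 656 and 147 FPKM in Dnmt3-sufficient and 774, 804 and 1029.7 in Dnmt3-deficient BMPC, 2.85-fold below nB (log2 change -1.51 ± 0.28, adjusted p 0.00028, limma). The value of 147 FPKM, from 998 reads, came from the Dnmt3-sufficient replicate 3, in which H2-K1 was not low. Without that library the change of H2-D1 was -1.15 with an adjusted p of 0.0013 in limma. Relative to the median of all genes H2-K1 lay at -0.61 and H2-D1 at -0.72.

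Tap1 showed the largest change of the 10 members in BMPC minus nB. It was at 0.253, 11.8 and 13.1 FPKM in Dnmt3-sufficient and 5.44, 3.14 and 1.47 in Dnmt3-deficient BMPC, from 3 to 256 reads, against 55.7 to 76.8 FPKM in nB. The groups were far apart, at 13.4-fold (log2 change -3.75 ± 0.44, adjusted p 2.38e-06, limma). Tap2 was at 30.9, 28.6, 19.3, 3.94, 27.3 and 14.7 FPKM in BMPC, Dnmt3-sufficient first. It fell by 2.19 on the log2 scale (SE 0.52, adjusted p 0.00225, limma), and a test of the recovered reads with voom gave -2.31 with an adjusted p of 0.0568. Nlrc5 was at 5.75, 0.0377, 4.11, 4.48, 0.212 and 2.40 FPKM in BMPC, from 1 to 104 reads. It was below every nB library and fell by 2.38 on the log2 scale (SE 0.55, adjusted p 0.0019, limma). Relative to the median of all genes, Tap1 was at -2.96, Tap2 at -1.40 and Nlrc5 at -1.59.

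Tapbp and the immunoproteasome held closer to nB. Tapbp was at 140.4, 116, 94.6, 93.1, 158 and 89.9 FPKM in BMPC, 1.69-fold below nB (adjusted p 0.0255, limma), with overlap. Psmb8 was at 340.4 to 474 FPKM, 1.27-fold below nB (adjusted p 0.0391, limma). Relative to the median of all genes, Tapbp was at 0.03 and Psmb8 at 0.45, so Psmb8 was higher only against that median. After median of ratios scaling both stayed lower than in nB but did not pass. Tapbp was then at -0.59 (adjusted p 0.0959, limma) and Psmb8 at -0.17 (adjusted p 0.284, limma). Psmb9 at 157 to 317 FPKM and Psmb10 at 49.4 to 165 FPKM overlapped nB, with adjusted p of 0.885 and 0.212 in limma. Psmb9 and Tap1, whose RefSeq starts are 226 bases apart in the sequence printed above, thus differed in these cells. Psmb9 in BMPC had a median of 255 FPKM against 254 in nB, and Tap1 a median of 4.29 against 64.0. That difference was read off after the values were seen and was not tested.

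The comparison of the antibody-forming with the germinal center state again had B2m higher and the transporter lower. B2m was 6.18-fold higher in BMPC than in GCB (log2 change 2.63 ± 0.15, adjusted p 3.53e-10, limma). Tap1 was 8.06-fold lower (adjusted p 1.98e-05, limma) and Tap2 3.31-fold lower (adjusted p 0.0101, limma). Tap2 lost this call without the Dnmt3-deficient BMPC replicate 1, at -1.38 with an adjusted p of 0.0603, and with voom, at -1.81 with an adjusted p of 0.135. The calls were 1 higher and 2 lower, against 36.7% of all genes called, 7.16% higher and 29.6% lower, and 5 members did not overlap, against 23.2%. The median change of the members was -0.29 against -0.66 for all genes.

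Tapbp was 1.97-fold higher in BMPC than in GCB without overlap (log2 change 0.98 ± 0.25, adjusted p 0.00497, limma), just under the minimum change. Under median of ratios scaling it passed, at 1.2002. Psmb8 was 1.65-fold lower in FPKM (adjusted p 0.000196, limma). After median of ratios scaling Psmb8 stayed lower, at -0.49 (adjusted p 0.00399, limma). Relative to the median of all genes it was at -0.06, and at 0.02 with that scaling. Psmb9 was 1.40-fold lower (adjusted p 0.0314, limma), at 0.18 relative to that median. With the scaling Psmb9 was at -0.26 and did not pass (adjusted p 0.272, limma). By the adjusted p alone 6 members passed, 2 higher and 4 lower, against 39.7% of all genes. The heavy chains did not pass, with adjusted p of 0.322 for H2-K1 and 0.814 for H2-D1 in limma, nor did Nlrc5 at 0.13 and Psmb10 at 0.843. Relative to the median of all genes H2-K1 was at 0.96 and H2-D1 at 0.57. These 3 comparisons share libraries and are not independent of each other.

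**Figure D2:**
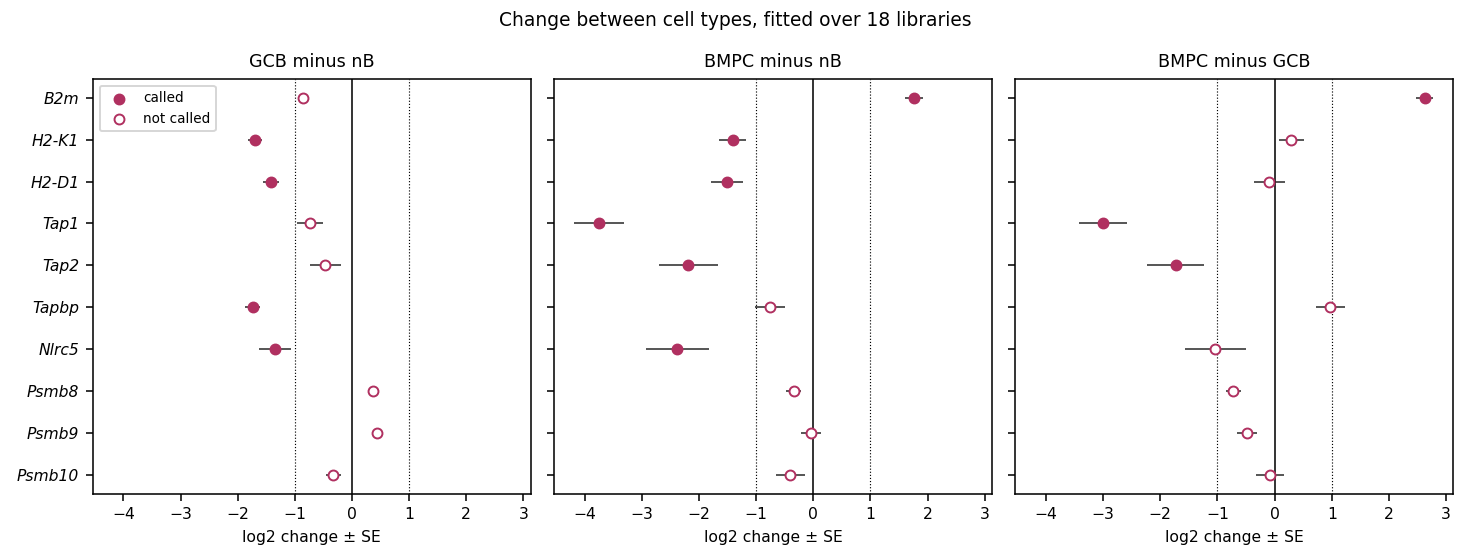
The log2 change with its standard error for each member in the 3 comparisons between cell types, fitted over 18 libraries (filled points, called; open points, not called; dotted lines, the minimum change of 1 in either direction). B2m is at 1.77 in BMPC minus nB and 2.63 in BMPC minus GCB, Tap1 is at -3.75 and -3.01, and the immunoproteasome subunits stay inside the dotted lines.

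The light chain and the heavy chains therefore stood in different proportions, which was noticed after the values were seen and is given without a test. The ratio of B2m to the sum of H2-K1 and H2-D1, all in FPKM, was 0.209 to 0.374 in nB, stood at 0.303 to 0.565 in GCB, and reached 1.99 to 3.403 in BMPC. The BMPC values were above the highest of the other 12 libraries in each of the 6 libraries, in both genotypes. A ratio within a library does not depend on how its total was scaled.

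Each immunoproteasome subunit was also compared with the constitutive subunit whose place it takes, as a ratio of (FPKM + 1) within each library, by exact two-sided permutation tests of 6 against 6 libraries with adjustment over the 9 tests. The ratio of immunoproteasome to constitutive mRNA was lowest in BMPC for Psmb8 and Psmb9, and fell in both differentiated cell types for Psmb10. The make-up of the proteasomes themselves was not measured. Psmb8 to Psmb5 had a median ratio of 3.13 in nB, 2.78 in GCB and 1.54 in BMPC. The log2 ratio differed by -1.06 between BMPC and nB and by -0.80 between BMPC and GCB (each with an adjusted exact p of 0.00487), and by -0.27 between GCB and nB (adjusted exact p 0.145). Psmb9 to Psmb6 had medians of 0.979, 0.873 and 0.489. It differed by -0.97 between BMPC and nB (adjusted exact p 0.0117) and by -0.79 between BMPC and GCB (adjusted exact p 0.0195), and by -0.19 between GCB and nB (adjusted exact p 0.192). In the Dnmt3-deficient BMPC replicate 2 the ratio was 0.946, within the nB range.

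Psmb10 to Psmb7 had a median of 6.91 in nB, 1.73 in GCB and 1.65 in BMPC. The log2 ratio was -2.03 in GCB minus nB and -2.38 in BMPC minus nB (each with an adjusted exact p of 0.00487), and -0.35 in BMPC minus GCB (adjusted exact p 0.277). The constitutive subunit Psmb7 was at 16.9 to 23.96 FPKM in nB, at 57.5 to 73.7 in GCB, and at 56.8 to 117 in BMPC, 3.26-fold and 3.94-fold above nB (adjusted p 9.03e-10 and 2.56e-06, limma). Psmb5 rose 1.56-fold in GCB and 1.64-fold in BMPC (adjusted p 0.000147 and 0.015, limma), and Psmb6 1.55-fold and 1.91-fold (adjusted p 4.67e-05 and 0.00101, limma), both below the minimum change.

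**Figure D3:**
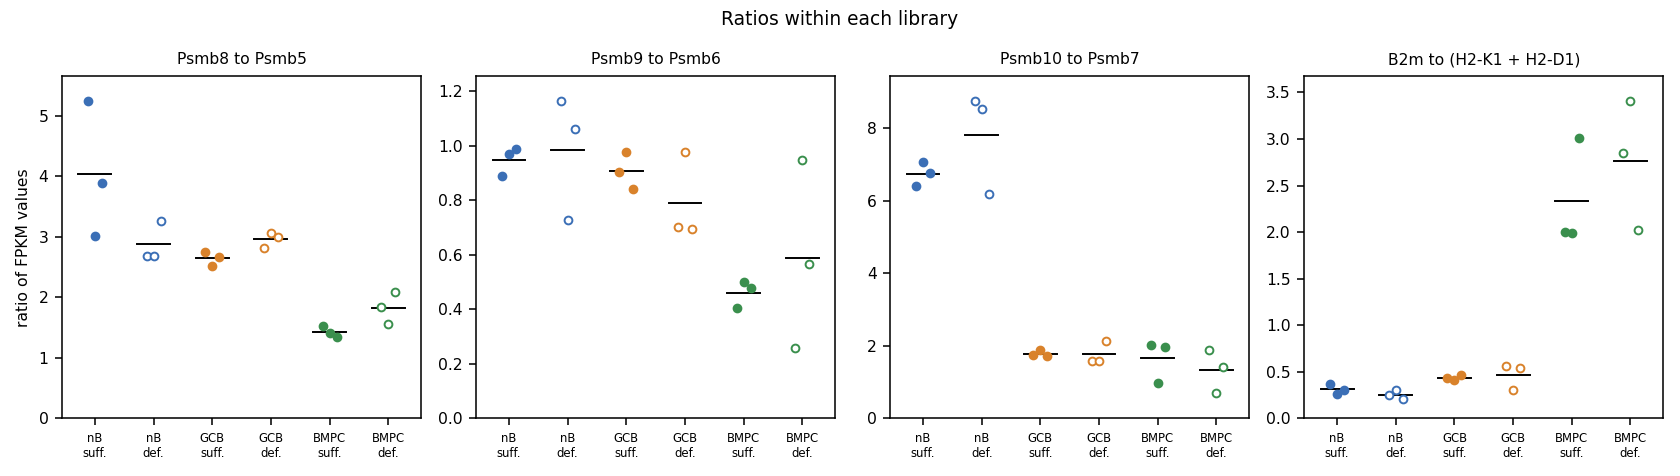
Ratios of (FPKM + 1) of each immunoproteasome subunit to its constitutive counterpart, and the ratio of B2m FPKM to the summed FPKM of H2-K1 and H2-D1, in each of the 18 libraries on linear axes from 0 (filled, Dnmt3-sufficient; open, Dnmt3-deficient; line, mean of 3). Psmb10 to Psmb7 drops from a median of 6.91 in nB to 1.73 in GCB, and B2m to heavy chains lies between 1.99 and 3.403 in BMPC.

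The other genes of the class I pathway were taken from a list of 45, of which 43 were tested. In GCB minus nB 2 rose and 17 fell, in BMPC minus nB 2 rose and 23 fell, and in BMPC minus GCB 3 rose and 8 fell. Over all genes the shares called higher and lower were, in the same order, 12.2% and 16.6%, 8.76% and 33.5%, and 7.16% and 29.6%, so that in BMPC minus GCB the list was called no more often than all genes. The nonclassical class I genes made up 11 of these 17 in GCB, out of 14 tested with none higher, and in BMPC 8 of 14 were lower than in nB. Cd1d1, which presents lipids to NKT cells, went from 32.0 to 62.5 FPKM in nB to 0 to 1.92 in GCB (log2 change -5.18 ± 0.37, adjusted p 1.22e-09, limma) and was 0 to 21.1 in BMPC. Fcgrt, the neonatal Fc receptor that binds B2m and keeps IgG from degradation, was at 19.7 to 48.0 FPKM in nB, at 0 to 3.72 in GCB (0 in 4 of 6 libraries), and at 0 to 11.1 in BMPC (0 in 4 of 6 libraries) (log2 change -4.44 ± 0.37 in GCB and -4.35 ± 0.72 in BMPC, adjusted p 1.02e-08 and 0.000103, limma).

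Of 5 genes for loading chaperones and peptide trimming, 1 was called lower in GCB than in nB, and 1 was called higher and 1 lower in BMPC than in nB. Of all genes tested, 28.8% were called in GCB minus nB and 42.3% in BMPC minus nB. Canx (calnexin), which holds new heavy chains, was at 170.2 to 198 FPKM in nB, 192 to 225 FPKM in GCB, but 481 to 901 FPKM in BMPC, a 3.32-fold rise over nB (log2 change 1.73 ± 0.15, adjusted p 4.19e-08, limma). Calr (calreticulin) was at 148 to 228, 168 to 251 and 196 to 305 FPKM, and Pdia3, the disulfide isomerase paired with tapasin, at 66.5 to 257, 47.6 to 306 and 49.7 to 125 FPKM. Neither passed in any of the 3 comparisons, with adjusted p from 0.189 to 0.717 in limma. Tapbpl, a relative of tapasin that edits the peptides of class I, is named here after its values were seen. It was at 49.0 to 84.4 FPKM in nB, against 16.4 to 36.5 in GCB, and was lower there (log2 change -1.28 ± 0.22, adjusted p 7.77e-05, limma). In BMPC it was at 8.90 to 60.5 FPKM and overlapped nB (log2 change -1.19 ± 0.42, adjusted p 0.0278, limma). That call was lost without the Dnmt3-sufficient BMPC replicate 1 (adjusted p 0.0584), without the Dnmt3-sufficient replicate 3 (0.118), without the Dnmt3-deficient replicate 2 (0.109), with voom (0.0647) and under median of ratios scaling (0.065), all in limma. The proteasome activator genes had 0 of 3 called in each comparison in limma, and 1 of 3 at an unadjusted p under 0.05. At that level 6286 of all 11522 genes tested passed in GCB minus nB, 6083 in BMPC minus nB and 5514 in BMPC minus GCB.

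Among 18 regulators 1 rose and 5 fell in GCB, and 14 fell in BMPC relative to nB with none higher, where 28.8% of all genes were called in GCB minus nB and 33.5% were called lower in BMPC minus nB. The 6 of 18 in GCB are thus near the share of all genes. In GCB Ifngr2, a chain of the interferon gamma receptor, fell 6.66-fold, from 23.4 to 57.9 FPKM in nB to 3.74 to 7.93 (adjusted p 1.83e-08, limma). Ezh2, the Polycomb methyltransferase of germinal center cells, rose 7.69-fold to 48.0 to 77.7 FPKM (adjusted p 4.15e-07, limma). In BMPC Irf8, a transcription factor of the interferon regulatory family, was at 0.945 to 8.02 FPKM against 61.7 to 96.7 in nB (13.8-fold lower, adjusted p 1.53e-06, limma). Relative to GCB, the NF-kappa B genes Nfkb1 and Rela were 4.88-fold and 3.29-fold lower in BMPC (adjusted p 0.000403 and 0.00702, limma). Of 17 interferon stimulated genes 12 fell in GCB and 11 in BMPC relative to nB, and none rose in either, against 16.6% and 33.5% of all genes called lower.

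MHC class II, through which B cells show peptides to CD4 T cells, was set beside class I. Of 10 class II pathway genes, 4 were lower in GCB and 9 in BMPC than in nB (16.6% and 33.5% of all genes), with medians of -0.90 and -5.21 on the log2 scale against -0.80 and -1.08 for the members (the -5.21 holds also with Ciita at its bound, below). Ciita, the class II transactivator of the same protein family as Nlrc5, was at 77.9 to 115 FPKM in nB and 37.5 to 65.3 in GCB, and had 0 reads in all 6 BMPC libraries. With 3 reads as the limit a count of 0 allows in a library, its level there was below 0.282 FPKM, at least 339.7-fold lower than the nB mean. Cd74, the invariant chain, was at 9955 to 11493 FPKM in nB and still 3877 to 9612 in BMPC, and was the class II gene that was not called.

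**Figure D4:**
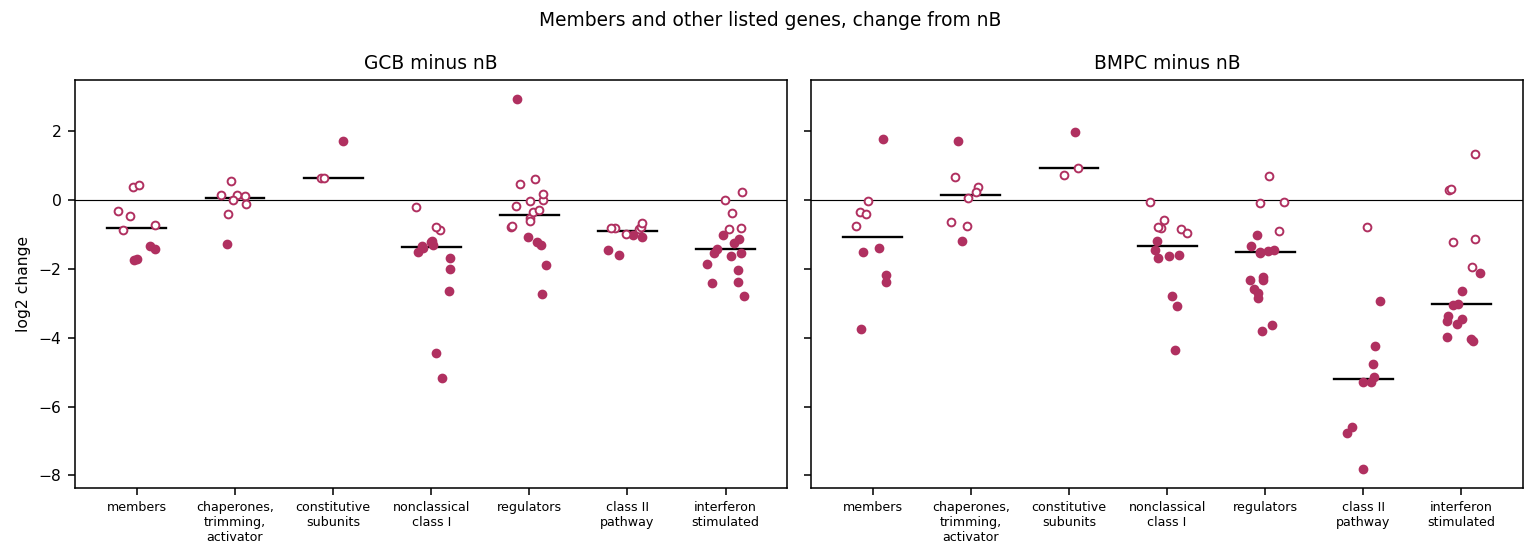
The log2 change of each gene tested from nB to GCB and from nB to BMPC, by list, with the list median as a line (filled, called; open, not called). The class II median is -5.21 in BMPC, the members' median is -1.08, and the constitutive proteasome subunits lie above 0 in both panels.

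The question of genotype was asked within each cell type. No member was called in any of them, against 0.0868% of all genes in nB, 0.0174% in GCB and 0.148% in BMPC. At an unadjusted p under 0.05, 1 member passed in nB, 1 in GCB and 2 in BMPC (623, 729 and 870 of all 11522 genes did), and the voom test of recovered reads also called 0. Standard errors on the log2 scale ran from 0.11 to 0.45 for nB, from 0.08 to 0.34 for GCB, and from 0.24 to 1.01 for BMPC, so that a change near the minimum could be missed in BMPC more easily than in GCB. No member was called either for a difference of its genotype change between cell types in limma, with 0, 1 and 1 at an unadjusted p under 0.05 for GCB against nB, BMPC against nB and BMPC against GCB. The share of all genes called in that test was 0.026% for GCB against nB, 0.104% for BMPC against nB and 0.0694% for BMPC against GCB.

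In nB the Dnmt3-sufficient libraries had Psmb8 at 576, 546 and 506 FPKM and the Dnmt3-deficient libraries at 472, 474 and 429. The groups did not overlap, 1 of 10 members against 8.84% of all genes, but the adjusted p was 0.855 in limma. In GCB the member without overlap was Psmb9, at 429.6, 362 and 395 FPKM in Dnmt3-sufficient and 304, 320.5 and 287 in Dnmt3-deficient cells (adjusted p 0.416, limma), 1 of 10 against 10.6% of all genes. The 5 erythroid markers summed to 0.468 to 1.42 FPKM in Dnmt3-sufficient nB and 22.5 to 218 in Dnmt3-deficient nB, without overlap. The 4 dendritic cell markers summed to 16.1 to 20.1 FPKM in Dnmt3-sufficient GCB and 27.8 to 29.8 in Dnmt3-deficient GCB, also without overlap. No other marker sum separated the genotypes in nB or GCB. The part of these differences in the Psmb8 and Psmb9 values was not tested.

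In BMPC 2 members did not overlap between genotypes, against 10.3% of all genes, and both were higher in Dnmt3-deficient cells. B2m had a mean of 2051 FPKM ± 143 (SD, n = 3) in Dnmt3-sufficient and 3588 ± 271 in Dnmt3-deficient BMPC, a log2 difference of 0.81 ± 0.28 with an adjusted p of 0.446 in limma. With 1 common spread for all cell types that adjusted p was 0.00153, still below the minimum change. H2-D1 differed by 1.09 ± 0.51 (adjusted p 0.659, limma), and by 0.37 without the Dnmt3-sufficient replicate 3 that was at 147 FPKM. Other contents of these libraries also separated the genotypes. Jchain, which joins IgM and IgA subunits, was at 25611, 20147 and 16189 FPKM in Dnmt3-sufficient and 39019.8, 46609 and 29771 in Dnmt3-deficient BMPC. The 5 erythroid markers summed to 1163 to 2229 FPKM in Dnmt3-sufficient and 159.6 to 814 in Dnmt3-deficient BMPC, and the 6 plasma cell markers to 18743 to 29028 and 33433 to 50988 FPKM. Between the same libraries the macrophage sums were 63.5 to 87.7 and 98.4 to 227 FPKM, also without overlap. The part of these differences in the B2m and H2-D1 values was not tested.

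**Figure D5:**
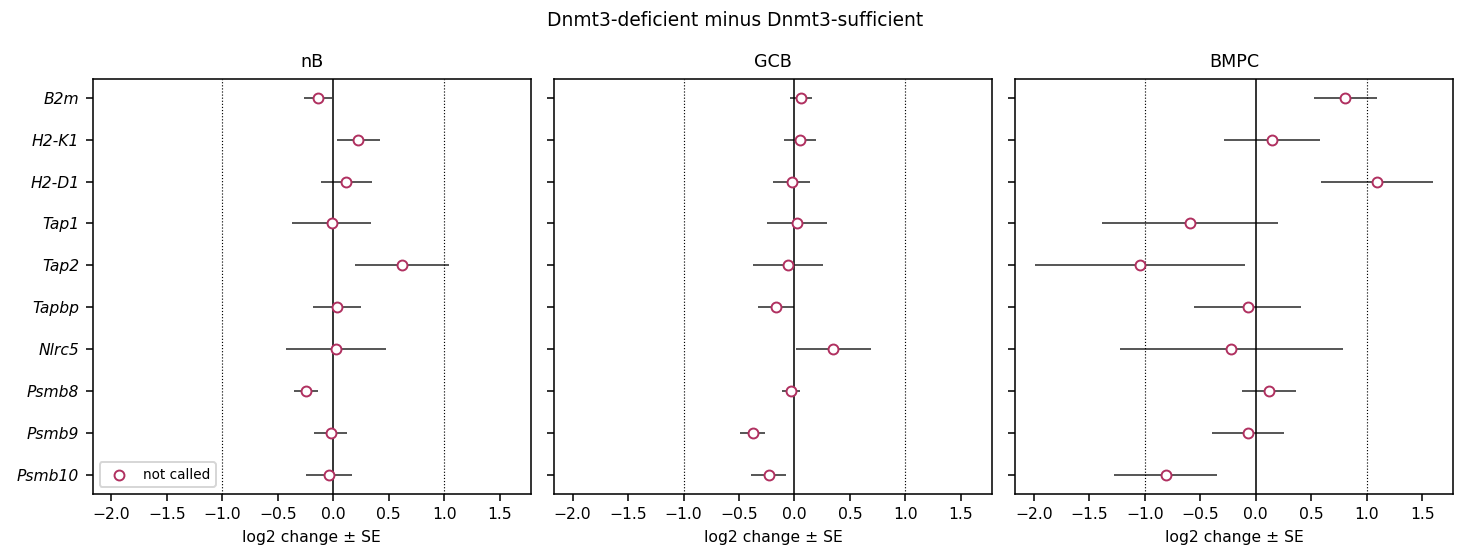
The log2 difference between Dnmt3-deficient and Dnmt3-sufficient libraries with its standard error, for each member in nB, GCB and BMPC (3 against 3 libraries; dotted lines, the minimum change of 1; no member was called). B2m is at 0.81 and H2-D1 at 1.09 in BMPC, where the error bars are widest.

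The remaining class I pathway genes and the class II genes likewise gave 0 calls between genotypes in each cell type in limma. At an unadjusted p under 0.05 there was 1 of 43 class I pathway genes in each cell type, and 0, 0 and 5 of 10 class II genes in nB, GCB and BMPC, where 623, 729 and 870 of the 11522 genes tested passed that level. In nB the interferon stimulated genes had a median difference of -0.72 with 8 of 17 not overlapping between genotypes, against 8.84% of all genes, and none called, while the members had a median of 0.01.

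The patterns most like those of 4 members were looked up over the 18 libraries by Pearson's r of log2(FPKM + 1), as a description. The libraries of a cell type share their cells and their depth, so a high r mostly repeats the order of the cell types. H2-K1 was most like Glcci1 (r = 0.96), Aff1 (0.96) and the class I gene H2-Q8 (0.95). Tap1 was most like Tacc1 (0.98), Ankrd12 (0.98) and Rasa3 (0.97). Psmb8 was most like Lpp (0.93), Gdi2 (0.93) and Sf3a1 (0.92), and Nlrc5 was most like Trim12c (0.95), Mgea5 (0.95) and Tnfaip8l2 (0.94).

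Class I genes resemble one another, and the aligner was set to report 1 place for each read, so that a read with several equal places could be put on any one of those genes. In GENCODE vM1 coding transcripts, 7.29% of all 50-base windows of H2-K1 and 12.8% of those of H2-D1 were also found in transcripts of another gene, most often H2-D1 and H2-Q2 respectively. The shares were 6.27% for Tap1, 9.71% for Psmb9, 9.52% for Tap2, 5.73% for Psmb8 and 1.23% for Tapbp, and 0 windows were shared for B2m and Psmb10. Of the shared windows, 163 of 188 for Tap1 and 163 of 163 for Psmb9 were common to this pair, whose annotations overlap. All 336 of Tap2 were shared with Gm15821, and all 93 of Psmb8 with Gm20496. Levels of the heavy chain genes are uncertain because of their shared windows. Nlrc5, annotated in that release as a noncoding RNA, was not part of this count.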

How the data were processed

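Cells were sorted to about 5000 per library, and cDNA was amplified over 13 cycles and made into libraries over 12 more. Per the study's methods, the authors aligned 50-base paired reads to mm9 with TopHat, reporting 1 place per read, counted reads that overlapped exons of 1 UCSC gene alone in R and wrote the deposited FPKM values, which were used here. The submitters' processing notes name R 3.2.2 and Picard. Columns holding the authors' own fold changes, p values and FDR were not used. FPKM was scaled to the reads on listed genes, and immunoglobulin chain genes are not analysed here and not in that total. FPKM and exon length gave back whole reads for 100% of values in every library (tolerance 0.01).

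Samples were grouped by the cell type and genotype in their source names. Genes above 1 FPKM in at least 2 libraries were tested (11522 genes, 6 group means) with limma 3.58.1 in R 4.3.3 on log2(FPKM + 1), with array weights by cell type and a trended prior, and Benjamini-Hochberg adjustment. The study's count model was replaced because the table holds FPKM. Weights by cell type were set because BMPC libraries spread more. Ratios were compared by exact permutation in scipy 1.17.1. Scripts were tested on simulated data. The sorted samples are taken as replicates, and p values measure the spread between them. Alternatives were another pseudocount (0.1), other filters, scaling, spread, covariate and read-based tests, and leaving out each library. Named genes were the members, fixed examples (Psmb5, Psmb6, Psmb7, Calr, Canx, Pdia3, Cd74, Ciita), and in each cell type comparison up to 4 pathway genes with the largest change among those called and without overlap. Values of some genes that this rule selects are not reported here. The members and all gene lists were chosen with earlier results of these data known. Intervals and limits from counts cover counting error only. Promoter windows were matched by symbol in RefSeq on GRCm38.p6, where 8 of 10 members had an entry, and Nlrc5 and Tap2 are named only.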

Additional observations from a re-analysis of the deposited data

How the results depend on the processing

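Of the 13 changes of members called between cell types, 348 of 351 values under the alternatives kept the call, 3 lost it and 0 changed sign. The losses were those of Tap2 given above. Some of these values could hardly differ. The setting with no minimum change is the same fit and could lose no call. Leaving out a library of the cell type not compared leaves the log2 change itself as it was. With no minimum change 9 members passed in GCB minus nB and 6 in BMPC minus GCB. These counts depend on the setting. Across the alternatives the adjusted p in GCB minus nB reached 0.282 for Tap1 and 0.294 for Psmb10 (limma). That of Psmb9 in BMPC minus GCB reached 0.272 (limma). Leaving out 1 library gave 4 members called in GCB minus nB each time, 6 in BMPC minus nB each time and 3 to 4 in BMPC minus GCB, where Tapbp joined in 5 of 18 such fits, and 0 in every genotype comparison. Ciita in GCB minus nB dropped below the minimum change in 5 such fits (-0.97 to -0.95). Cd1d1 in BMPC minus nB lost its call with a pseudocount of 0.1 (-4.22, adjusted p 0.0616, limma). Psmb6 in BMPC minus nB passed under median of ratios scaling (1.11) and without the Dnmt3-deficient BMPC replicate 2 (1.06). The cause of these shifts was not tested.

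For the ratios, 3 against 3 libraries of 1 genotype allow no exact p below 0.1. In Dnmt3-sufficient libraries alone, the log2 ratio of Psmb8 to Psmb5 differed by -1.47 (BMPC minus nB) and -0.89 (BMPC minus GCB), that of Psmb9 to Psmb6 by -1.05 and -0.98, and that of Psmb10 to Psmb7 by -1.92 (GCB minus nB) and -2.10 (BMPC minus nB), each with an adjusted exact p of 0.129. In Dnmt3-deficient libraries alone, Psmb8 to Psmb5 gave -0.65 and -0.70, Psmb9 to Psmb6 -0.90 and -0.60, and Psmb10 to Psmb7 -2.14 and -2.65 (adjusted exact p 0.225 to 0.45), and Psmb8 to Psmb5 in GCB minus nB turned to 0.048. Leaving out 1 library lost no call among the ratios.

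Counts over all genes moved most for genotype, with 10 called in nB, 2 in GCB and 17 in BMPC. These became 29, 8 and 29 with a pseudocount of 0.1, 20, 5 and 45 with no filter, 6, 0 and 459 with 1 common spread, and 0 in each when only the groups compared were fitted. Between GCB and nB 3320 genes were called, and 5557 without a minimum change. In GCB, libraries that shared a title code did not deviate together (correlations of -0.0171 to 0.0257), and the fit with the replicate block called 0 genes and 0 members. BMPC had the fewest reads, and changes of Tap1, Tap2 and Nlrc5 there rest on as few as 1 to 16 reads in a library.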
